A study of Mus musculus with 2 samples.

Results

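The genes of the cytosolic ribosomal proteins were examined in mature hepatocytes (MHs) and small hepatocytes (SHs) of the adult mouse liver. Members were all gene symbols made of Rpl or Rps, a number and at most a short suffix, together with Rplp0, Rplp1, Rplp2 and Rpsa. The Rps6k genes, which encode kinases, and symbols that mark pseudogenes were left out. This rule took 84 of the 43280 symbols in the count tables, 52 for proteins of the large subunit and 32 for proteins of the small subunit. No expression value entered the rule. In the GENCODE M21 annotation of mm10, 83 of the 84 are protein-coding genes, spread over 19 chromosomes, and Rps4l is annotated as a transcribed processed pseudogene.

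A cytosolic ribosome consists of a small subunit, which reads the mRNA, and a large subunit, which joins amino acids into a chain that leaves through an exit tunnel. Each subunit carries its own set of ribosomal proteins around ribosomal RNA, and the proteins are built in at fixed ratios. Most mRNAs for ribosomal proteins and translation factors begin with a run of pyrimidines, the terminal oligopyrimidine (TOP) motif, through which the kinase mTOR and the RNA-binding protein Larp1 control their translation. Hepatocytes make and secrete most plasma proteins and hold abundant rough endoplasmic reticulum.

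Poly(A) RNA was sequenced from 1 library of MHs and 1 library of SHs of C57BL6 mice. The labels give an age of 20 weeks and say that both kinds of cells came from the same animals, whereas the methods of the study give a younger age range. Both were freshly isolated by perfusing the liver with collagenase. The fractions were separated by centrifugation, and dead cells were removed from both with Percoll. No surface marker was used for MHs. SHs, a fraction of small cells described as hepatocyte progenitors, were sorted by FACS for ICAM-1 and against CD31, CD45 and EpCAM. No gene was altered and no agent was given in either group. The methods name several mice and 1 set of SHs and MHs, without saying whether cells were pooled. Any difference in preparation or sequencing between the libraries cannot be told apart from cell type. With 1 library per cell type there was no replicate error and no test between cell types, so each ratio carries a 95% interval that covers counting error only.

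The MH library held 16979136 counted reads and the SH library 42356444. Values are given as reads and as reads per 1000000 counted reads (RPM). A gene at 3 reads or fewer, which is 0.177 RPM in MHs and 0.0708 RPM in SHs, was taken as being at the floor. The 10 hepatocyte markers, among them Alb, Ttr and Hnf4a, were all detected and summed to 82914 RPM in MHs and 88790 RPM in SHs. Transcripts of endothelial, immune and stellate cells were less abundant in SHs. The 10 endothelial markers summed to 80.6 RPM in MHs and 4.67 RPM in SHs, where Lyve1 was at 0. The 11 macrophage and immune markers summed to 22.3 and 0.803 RPM, with Cd3e at 0 in both libraries and Cd79a at 0 in MHs, and the 9 stellate cell markers to 19.6 and 2.12 RPM. The 7 cholangiocyte markers summed to 21.4 RPM in MHs and 24.4 RPM in SHs, with Cftr at 0 in SHs. Only 3 of the 7 had at least 10 reads over both libraries, and their directions differed. Their log2 ratios of SHs over MHs ran from -0.33 for Spp1 to 0.50 for Sox9. Epcam, against which SHs were sorted, had 6 reads in MHs and 1 in SHs. The marker for which SHs were sorted, Icam1, was not seen at a higher level in SHs. Its counts of 130 (MHs) and 276 (SHs) gave a log2 ratio of -0.24, with an interval from -0.54 to 0.08. The 5 erythroid markers found summed to 118.3 and 137.0 RPM, nearly all of it from Alas2, the only 1 with at least 10 reads. Hbb-bt was at 0 in both libraries, and Hba-a1 and Hbb-bs were at 0 in MHs. The part of these other cell types in the values below was not tested.

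The first bases of the mRNA carry the TOP motif, so start sites are shown for genes at both ends of the ratio of SHs over MHs, where a RefSeq sequence was at hand. Each line holds the 10 bases before and the 20 bases from the annotated gene start in RefSeq's GRCm38.p6, on the strand of the gene, and capitals mark the longest run of C or T in it. The genes with the highest ratios come first.
Rplp2, chr7:141447641-141447670, plus strand: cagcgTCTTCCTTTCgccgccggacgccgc
Rps12, chr10:23787190-23787219, minus strand: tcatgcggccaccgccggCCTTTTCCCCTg
Rps27, chr3:90213629-90213658, minus strand: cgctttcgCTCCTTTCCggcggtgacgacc
Rpl23, chr11:97782420-97782449, minus strand: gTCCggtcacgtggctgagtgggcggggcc
Rpl14, chr9:120571507-120571536, plus strand: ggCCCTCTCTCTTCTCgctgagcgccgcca
Rpl41, chr10:128549149-128549178, minus strand: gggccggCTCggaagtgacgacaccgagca
Rpl39, chrX:37085203-37085232, minus strand: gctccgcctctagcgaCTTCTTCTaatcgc
Rpl22l1, chr3:28805498-28805527, plus strand: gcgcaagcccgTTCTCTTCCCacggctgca

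Pyrimidine runs of at least 8 bases stood at or near the annotated start of genes at both ends of the order. They began between 8 bases before the start (Rpl14) and base 9 from it (Rps12), so not all lay at the first bases. Such runs were found in Rplp2, Rps12, Rps27 and Rpl14 among the higher ratios and in Rpl39 and Rpl22l1 among the lower ratios, whereas the windows of Rpl23 and Rpl41 held runs of 3 bases. Rps20, also among the lower ratios, is named only. The RefSeq starts of Rplp2, Rpl39 and Rpl41 differ from their GENCODE starts. Start sites used in these cells were not measured, so a short run here does not show that a TOP motif is missing. A RefSeq window was found for 63 of the 84 members. A run of 8 or more C or T within 50 bases of the annotated start, on the strand of the gene, was present in 53 of the 63 (84.1%), against 39.3% of the 27025 genes with a window. In the whole window of 250 bases before to 50 bases after the start, on either strand, GGGCGG was found in 61.9% of members and 38.2% of all genes. The letters CCGGAAG were found in 39.7% and 9.93%, and AAGATGGC in 9.52% and 3.19%. CACGTG was held by 9.52% and 8.09%, and TATAAA by 11.1% and 15.7%. A match describes the letters in a window and is not a measured binding site.

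Ribosomal protein genes took nearly the same share of the counted reads in both cell types. Their 84 symbols held 122716 reads in MHs, 0.723% of the library (95% Clopper-Pearson interval 0.719% to 0.727%), and 306321 reads in SHs, also 0.723% (0.721% to 0.726%). The log2 ratio of the summed reads, SHs over MHs, had an interval from -0.0087 to 0.0105. With the other scalings tried the interval lay above 0, at ratios of up to 0.0327, and with the reads of sequence-matched pseudogenes added it lay under 0, at -0.0166. In these bulk libraries, fewer cells of a type and less RNA per cell cannot be told apart. All 32 genes of the small subunit and 49 of the 52 genes of the large subunit had at least 10 reads over both libraries. The others were Rpl3l, with 0 reads in both, Rpl10l, with 1 read in each, and Rpl39l, with 1 read in MHs and 0 in SHs, all paralogs of a core gene.

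Among these 81 genes the median log2 ratio was 0.0079, with the middle 50% of genes between -0.11 and 0.10. Over all 15521 genes with at least 10 reads the median was 0.017, with the middle 50% between -0.22 and 0.21. A gene was counted as higher or lower when it differed by at least 1.5-fold and its interval lay wholly on that side of 0. By this rule 0 of the 81 members were higher in SHs and 0 were lower, while 3.5% and 6.2% of all genes with at least 10 reads were called, and 0.87% and 1.68% of the 5055 genes with at least 1000 reads. With a threshold of 25% in place of 1.5-fold (the higher level over the lower), 1 member was called higher, Rplp2, and 3 were called lower, among them Rpl22l1 and Rps20, beside 7.36% and 9.58% of all genes and 5.54% and 5.46% of those with at least 1000 reads.

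**Figure D1:**
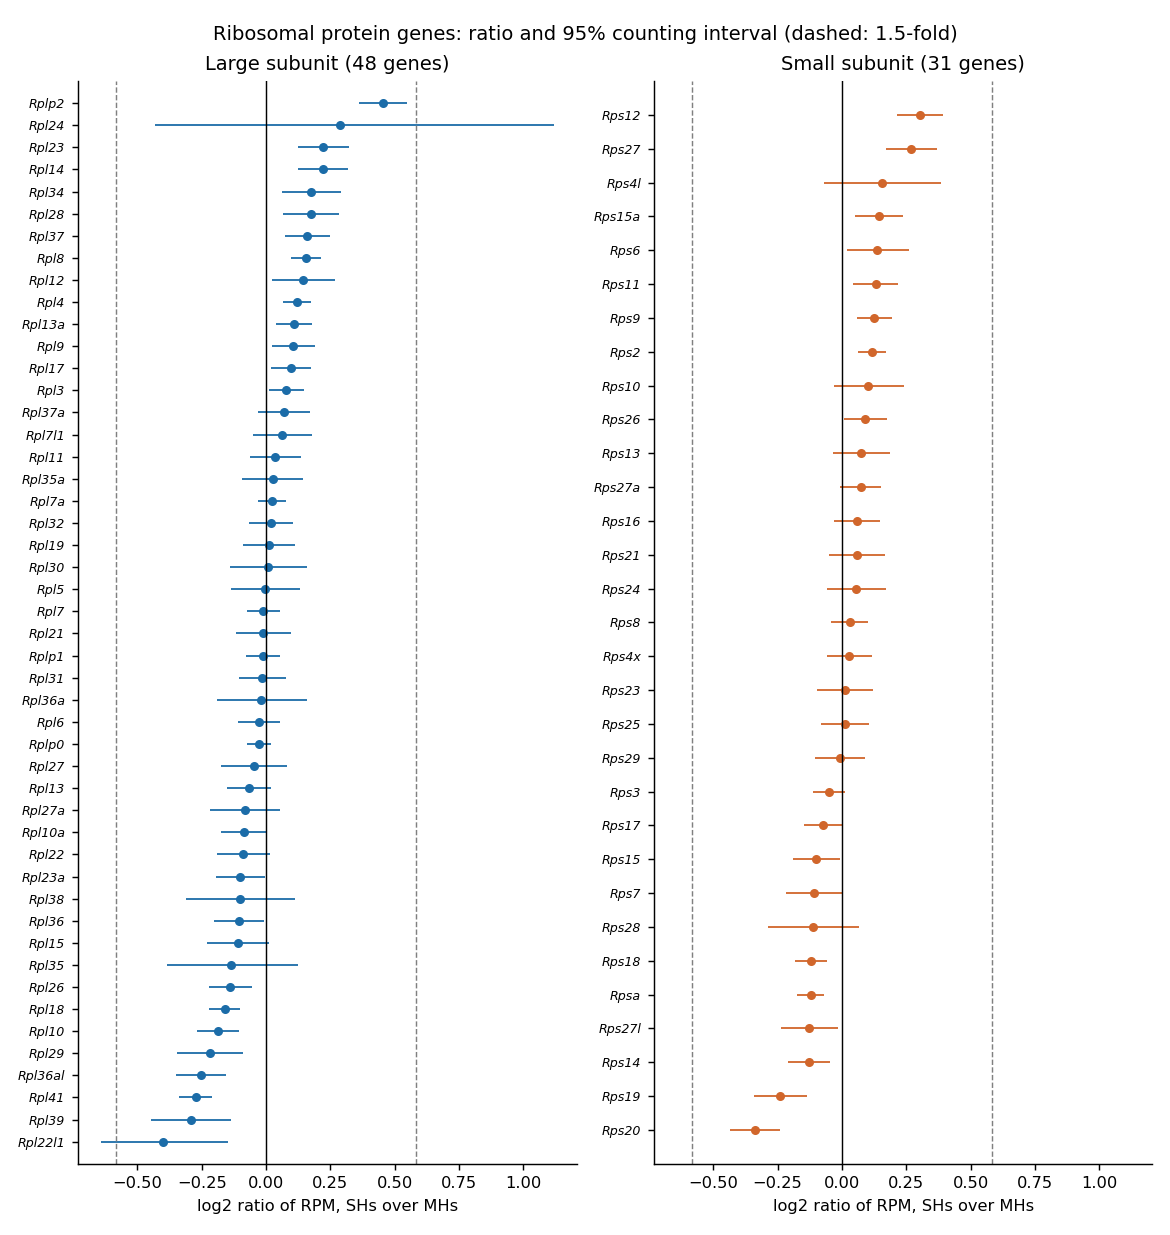
Log2 ratio of RPM, SHs over MHs (x axis), for 48 of the 49 large-subunit genes and 31 of the 32 small-subunit genes with at least 10 reads, one row per gene, with points for the ratio and bars for its 95% counting interval. All points lie inside the dashed 1.5-fold lines, from -0.40 for Rpl22l1 to 0.45 for Rplp2, and the widest bar belongs to Rpl24, which had 82 reads in all.

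Most members had nearly equal levels in both libraries. In all, 77 of the 81 members (95.1%) differed by less than 25%, against 64.8% of all genes. Among genes with at least 1000 reads the shares were nearer, 96.1% of 76 members and 89% of all. The ratio was above 0 for 41 of the 81 members, against 52% of all genes and 57.7% of those with at least 1000 reads. Scaled to the library total without the 10 most abundant genes, 50 of the 81 were above 0. The interval lay above 0 for 21 members and under 0 for 19, where 16.8% and 15.5% of all genes lay on either side, or 31.2% and 21.1% of the genes with at least 1000 reads.

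**Figure D2:**
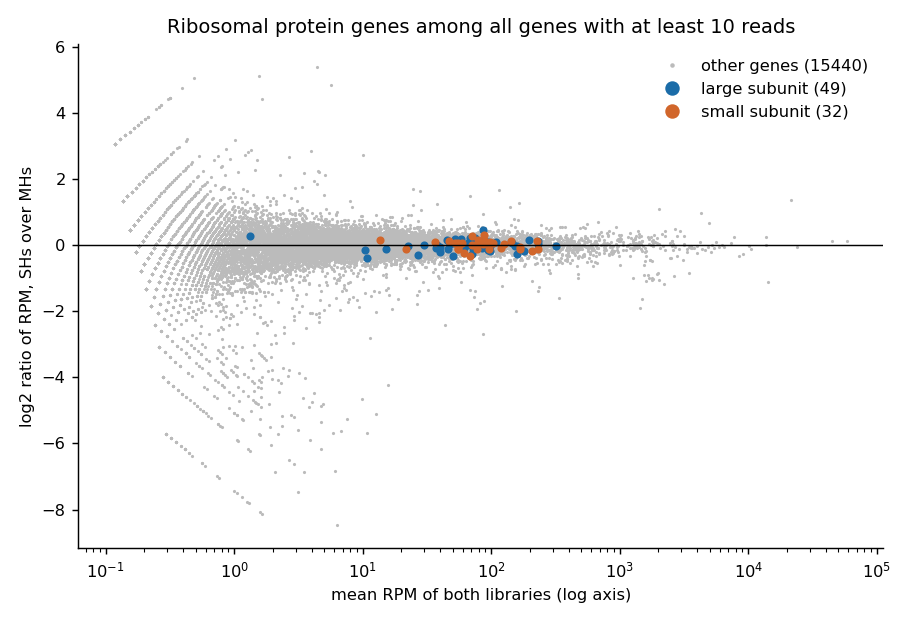
Log2 ratio of RPM, SHs over MHs (y axis), against the mean RPM of both libraries (x axis, log scale) for all genes with at least 10 reads, with the large subunit in blue, the small subunit in orange and the other 15440 genes in grey. The ribosomal protein genes sit in a narrow band around 0, inside the cloud of genes at like levels.

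The large and the small subunit had similar ratios of summed reads. Large-subunit genes held 71786 reads in MHs (0.423%) and 179488 in SHs (0.424%), for a log2 ratio of 0.0033 with an interval from -0.0092 to 0.0158. Small-subunit genes held 50930 reads (0.300%) and 126833 reads (0.299%), for a log2 ratio of -0.0025 with an interval from -0.0173 to 0.0124. The intervals of both ratios include 0 and overlap each other.

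Gene by gene, the median log2 ratio was -0.011 over the 49 large-subunit genes and 0.029 over the 32 small-subunit genes. The difference of these medians was -0.039, and single genes had an SD of 0.16 in the large subunit and 0.14 in the small subunit. With 1 library per cell type the difference was not tested. Ratios were above 0 for 22 of the 49 large-subunit genes, with 13 intervals above 0 and 11 under. For the small subunit 19 of the 32 were above 0, with 8 intervals on each side. Over all genes 52% of ratios were above 0, with 16.8% of intervals above 0 and 15.5% under. At 1000 reads or more these shares were 57.7%, 31.2% and 21.1%. The sign of the large-subunit median depended on the scaling, since it became 0.021 when the 10 most abundant genes were left out of the library total.

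Rplp2 had the highest ratio of the members with at least 200 reads. It encodes an acidic protein of the stalk, the arm of the large subunit that recruits elongation factors. Rplp2 (mm10, chr7:141447370-141451585) had 1246 reads in MHs (73.4 RPM) and 4260 in SHs (100.6 RPM), for a log2 ratio of 0.45 (interval 0.36 to 0.55), or 1.37-fold. The other stalk genes had nearly equal values. Rplp1, its partner in the stalk, had 159.5 RPM in MHs and 158.3 RPM in SHs, for a log2 ratio of -0.01 (-0.08 to 0.05). Rplp0, which anchors both to the ribosome, had 319.3 and 313.2 RPM, for a log2 ratio of -0.03 (-0.07 to 0.02). Within the stalk the interval of Rplp2 thus lay apart from those of its partners, which both included 0.

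Next in order stood a pair of small-subunit genes. Rps12 (chr10:23785183-23787275), a protein of the beak of the small subunit, had 1346 reads in MHs and 4146 in SHs, for a log2 ratio of 0.30 (0.22 to 0.39). Rps27 (chr3:90212522-90213651), a zinc-finger protein, had 1097 and 3301 reads, for a log2 ratio of 0.27 (0.17 to 0.37). Rpl23 and Rpl14 of the large subunit followed. Rpl23, which lies at the face that meets the small subunit, had 1072 and 3121 reads, and Rpl14 had 1163 and 3383 reads. Both log2 ratios were 0.22, with intervals of 0.12 to 0.32 and 0.13 to 0.32. The intervals of these 4 genes overlap one another, and those of Rplp2 and Rps12 overlap in part. Overlap of intervals does not decide an order, and differences between these genes were not tested.

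At the other end, Rpl22l1, a paralog of Rpl22, had the lowest ratio. Rpl22l1 (chr3:28805436-28807424) was counted with 208 reads in MHs (12.3 RPM) and 394 in SHs (9.30 RPM), for a log2 ratio of -0.40 (-0.64 to -0.15). Rps20 (chr4:3831334-3835665), in the head of the small subunit, had 1297 and 2562 reads, for a log2 ratio of -0.34 (-0.43 to -0.24). These genes were lower in SHs by less than 1.5-fold, and their intervals overlap. Rpl39, which lines the exit tunnel, had 500 and 1019 reads, for a log2 ratio of -0.29 (-0.45 to -0.13). Rpl41, the shortest ribosomal protein, had 2971 and 6132 reads, for a log2 ratio of -0.27 (-0.34 to -0.21).

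Groups with a shared place or role in the ribosome were set side by side. The exit tunnel and its port are represented by 8 large-subunit proteins. Their median log2 ratio was -0.095, from -0.29 for Rpl39 to 0.10 for Rpl17, with the interval of Rpl17 above 0 and those of Rpl39, Rpl26 and Rpl23a under 0. All 8 differed by less than 25%, and the 6 below 0 included Rpl31 at -0.01 and Rpl22 at -0.09. Rpl19 stood at 0.01, and Rpl35 at -0.13 with an interval that included 0. Rpl23a and Rpl35 sit at the tunnel port, where the signal recognition particle docks on ribosomes that make secreted proteins.

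The path of the mRNA through the small subunit is lined by Rps2 and Rps3 at its entry and by Rps14, Rps26, Rps28 and Rpsa toward its exit, among others. Rps2, with 3669 reads in MHs and 9914 in SHs (log2 ratio 0.12), and Rps26, with 1609 and 4274 (0.09), had intervals above 0. Rps14 and Rpsa had intervals under 0, with log2 ratios of -0.13 and -0.12. Rps3 (-0.05) and Rps28 (-0.11) had intervals that included 0. These genes therefore lay on both sides of equal levels, with more of the ratios given below 0 than above.

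Rpl5 and Rpl11 bind the 5S ribosomal RNA, and outside the ribosome this particle holds back Mdm2, the ubiquitin ligase of p53. Rpl5 had 639 reads in MHs and 1590 in SHs. Rpl11 had 1119 and 2862. Their log2 ratios were -0.0044 (-0.14 to 0.13) and 0.04 (-0.06 to 0.14). Mdm2 itself had a log2 ratio of 0.12 (-0.05 to 0.30), and Trp53, the gene of p53, had 215 and 636 reads, a ratio of 0.24 (0.02 to 0.48). Rps6, the best known substrate of the S6 kinases, had 765 reads in MHs and 2100 in SHs, for a log2 ratio of 0.14 (0.02 to 0.26).

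Rps27a is made as a fusion with ubiquitin, which is cut off to leave the ribosomal protein. It had 1712 reads in MHs and 4491 in SHs, for a log2 ratio of 0.07 (-0.01 to 0.15). Ribosomal proteins whose symbols lie outside the rule gave like values. Fau, a fusion with a ubiquitin-like protein, had 1622 and 4416 reads (0.13, 0.04 to 0.21). Gnb2l1, which encodes the scaffold Rack1, had 4073 and 10011 reads (-0.02, -0.07 to 0.03), and Rps3a1 had 1845 and 4608 reads (0.0015, -0.08 to 0.08).

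Inherited variants in ribosomal protein genes cause Diamond-Blackfan anemia, a failure of red cell production. The 10 genes of that list had a median log2 ratio of 0.010, from -0.24 for Rps19 to 0.10 for Rps10. Their summed reads had a log2 ratio of -0.035 with an interval from -0.066 to -0.0038, opposite in sign to the median, and other scalings moved all ratios up by as much as 0.032. Rps19, the gene most often affected, had 1138 reads in MHs and 2404 in SHs (interval -0.34 to -0.14). The interval of 1 gene, Rps26, lay above 0 and those of Rps19 and Rpl26 lay under 0. Of the 4 X-linked genes, Rpl10 (-0.19, interval -0.27 to -0.11) and Rpl39 had intervals under 0, and Rps4x (0.03) and Rpl36a (-0.02) had intervals that included 0. The summed reads of these 4 had a log2 ratio of -0.10 (-0.16 to -0.05), also under 0.

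Levels of different genes were compared per length, as RPKM computed from the counted reads and the length of a reference mRNA. Over the 80 members with at least 200 reads the median was 104.7 RPKM in MHs and 110.9 in SHs, at percentile 96.3 and 96.8 of the protein-coding genes with reads. The lowest and the highest member differed 27.9-fold in MHs, from 11.5 to 321.7 RPKM, and 30.2-fold in SHs, from 10.5 to 317.1 RPKM. The middle 50% of members spanned 2.58-fold and 2.59-fold. Ribosomal proteins are needed in near equal numbers, whereas their mRNA levels measured here spread far more widely between genes than between the cell types. The spread between genes also depends on the mRNA length chosen and on reads counted on pseudogenes. In MHs, Rpl18 had 278.0 RPKM with its reference mRNA and 55.3 RPKM with the length of all its annotated exons. Median levels were 101 RPKM in MHs and 107 RPKM in SHs for the large subunit, and 130 and 136 RPKM for the small subunit.

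The order of the members was nearly the same in both libraries. Across the 80 genes, log2 RPKM in MHs and SHs had a Pearson r of 0.991 and a Spearman rho of 0.988. These are descriptions across genes, whose lengths are shared between the libraries. The highest level per length in both libraries together was that of Rplp1, with 319.7 RPKM in MHs and 317.1 RPKM in SHs. Rps18 had 313.2 and 288.4 RPKM, Rpl41 had 321.7 and 266.1, and Rpl18 had 278.0 and 248.6. Intervals of the ratio were under 0 for Rps18, Rpl41 and Rpl18 and included 0 for Rplp1. Rpl18 shares 373 exon bases with Sphk2 on the opposite strand.

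At the lower end, Rpl35 had 11.5 RPKM in MHs and 10.5 in SHs, and Rps4l had 13.7 and 15.2. Rps15a, Rpl5 and Rps20 were also low per length. Rps15a had 1281 and 3534 reads, but its reference mRNA is 5130 bases long, which gave 14.7 and 16.3 RPKM. Rpl5, with an mRNA of 2045 bases, had 18.4 RPKM in both libraries, and Rps20, with one of 3706 bases, had 20.6 and 16.3 RPKM. The annotated mRNAs of these 3 genes are long for a ribosomal protein, where the median over members is 774.5 bases. Which of the annotated forms these cells used was not tested.

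**Figure D3:**
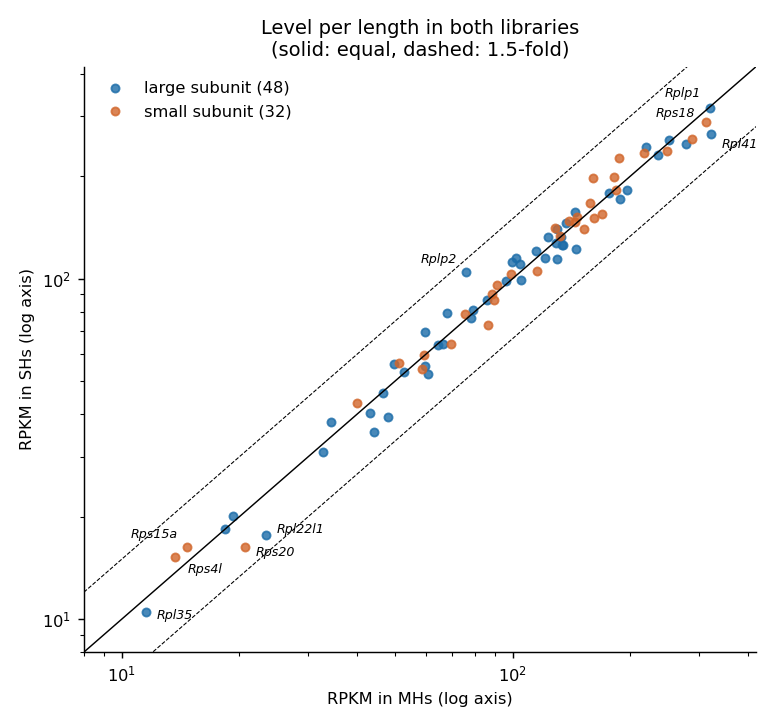
Level per length in RPKM in MHs (x axis) and in SHs (y axis), both on log axes, for the 80 members with at least 200 reads, large subunit in blue and small subunit in orange. The points follow the solid line of equal levels from Rpl35 at 11.5 and 10.5 RPKM to Rplp1 at 319.7 and 317.1 RPKM, and all lie between the dashed 1.5-fold lines.

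Ribosomal protein mRNAs are short, so the ratio was set against mRNA length. Across the 80 members the log2 ratio and log2 length had a Spearman rho of 0.198, and across 4558 protein-coding genes with at least 1000 reads a rho of -0.057. Under 600 bases, 28 members had a median log2 ratio of -0.045, while 63 other genes of that length had 0.091. From 600 to under 1000 bases the medians were 0.024 for 33 members and 0.042 for 235 other genes, and from 1000 to under 2000 bases 0.058 for 15 members and 0.049 for 1105 other genes. Of these 3 classes, which hold all but 4 of the 80 members, medians of members and other genes stood furthest apart under 600 bases, where the middle 50% of the other genes spanned -0.02 to 0.21.

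Several core genes have a paralog, and some paralogs can take the place of the core protein in the ribosome. Rps27l, a target of p53, stood against Rps27. In MHs Rps27l had 978 reads, 47.1% of the reads of the pair (95% Clopper-Pearson interval 44.97% to 49.3%), and in SHs 2234 reads, 40.4% (39.1% to 41.7%). The intervals of the shares do not overlap, with log2 ratios of -0.13 for Rps27l and 0.27 for Rps27. Rpl36al made up 77.3% of the reads of Rpl36al and Rpl36a in MHs (75.2% to 79.2%) and 74.3% in SHs (72.8% to 75.7%). Rpl22l1 made up 16.2% of its pair with Rpl22 in MHs (14.2% to 18.3%) and 13.5% in SHs (12.3% to 14.8%). For these 2 pairs the share was also lower in SHs, and the intervals of the shares overlap. Such overlap does not show equal shares, and the differences were not tested.

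The shares of the other detected paralogs were close in both libraries. Rpl7l1 held 24.5% of the reads of its pair with Rpl7 in MHs and 25.4% in SHs. Rps4l, annotated as a pseudogene, held 13.02% and 14.1% of its pair with Rps4x. Rpl3l, known from heart and skeletal muscle, and Rpl10l and Rpl39l, known from the testis, were at or under the floor in both libraries. Their core partners Rpl3, Rpl10 and Rpl39 had 2392, 1761 and 500 reads in MHs. Reads of near-identical genes could have been split between them by the counting, so the shares of a pair are uncertain to that extent.

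Translation factors and other genes whose mRNAs carry a TOP motif were listed beside the ribosomal proteins. The median log2 ratio of the 24 listed genes was 0.14, with 19 above 0, 12 intervals above 0 and 1 under. Without the ribosomal proteins in the list, such as Fau and Gnb2l1, the median of the other 21 was 0.16, against 0.0079 for the ribosomal protein genes and 0.038 for all genes with at least 1000 reads. Of these 21, 11 intervals lay above 0. The summed reads of the 21 had a log2 ratio of 0.060 (0.047 to 0.073), lower than their median, and Eef1a1 alone held 31278 of their 70398 reads in MHs. For intervals above 0 the share among all genes was 16.8%, and 31.2% at 1000 reads or more. At 1.5-fold 0 of the 24 were called in either direction, where 3.5% of all genes were called higher and 6.2% lower.

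The highest ratio in this list was that of Btf3, a subunit of the complex that meets nascent chains at the ribosome. Btf3 had 662 reads in MHs and 2094 in SHs, for a log2 ratio of 0.34 (0.22 to 0.47). Npm1, a nucleolar chaperone, had 133 and 393 reads (0.24, -0.04 to 0.54), and Eef1d, an exchange factor for elongation factor 1A, had 705 and 2075 reads (0.24, 0.11 to 0.36). At the other end were Hnrnpa1 (-0.09, -0.29 to 0.12), Eef1a1 and Gnb2l1. Eef1a1, which brings aminoacyl-tRNA to the ribosome, had 31278 and 76492 reads, for a log2 ratio of -0.03 (-0.05 to -0.01). Eef2, which moves the ribosome along the mRNA, had 20444 and 56918 reads, for a log2 ratio of 0.16 (0.14 to 0.18). It was named beyond the fixed rule after its value was seen.

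Genes that build ribosomes in the nucleolus spread more widely around a small median. Over the 38 listed genes the median log2 ratio was 0.057, with 23 above 0, 9 intervals above 0 and 3 under. At 1.5-fold 1 gene was called higher, Gar1, with 10 reads in MHs and 59 in SHs and an interval from 0.26 to 2.37, and 0 were called lower, where 3.5% and 6.2% of all genes were called. Intervals lay above 0 for 16.8% and under 0 for 15.5% of all genes. Nop56, a core protein of the particles that methylate ribosomal RNA, had 311 reads in MHs and 519 in SHs, for a log2 ratio of -0.58 (-0.79 to -0.37), just short of 1.5-fold. Rrn3, which recruits RNA polymerase I, had a ratio of -0.22 (-0.42 to -0.02), and Nmd3, the export adaptor of the large subunit, had -0.22 (-0.45 to 0.02). At 200 reads or more, the list was led by 0.39 for Rrp9 (0.06 to 0.74), 0.32 for Bysl (0.09 to 0.55) and 0.28 for Nolc1 (0.11 to 0.45).

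The regulators of ribosomal protein synthesis differed by less than 25% in all 11 cases, as did 64.8% of all genes and 89% of those with at least 1000 reads. Mtor had 856 reads in MHs and 2314 in SHs, for a log2 ratio of 0.12 (0.0021 to 0.23), and its partner Rptor had -0.02 (-0.16 to 0.12). Larp1, which holds TOP mRNAs when mTOR is off, had 1620 and 4009 reads, a ratio of -0.01 (-0.10 to 0.07). The related Larp4 had 831 and 1719 reads, a ratio of -0.27 (-0.39 to -0.15), the lowest of the 11. Eif4ebp1 (0.17) and Eif4ebp2 (0.15), the brakes on cap-dependent translation, had intervals of -0.01 to 0.36 and 0.05 to 0.26. Rps6kb1, an S6 kinase, had -0.17 (-0.34 to -0.0018), and its paralog Rps6kb2 had 0.11 (-0.11 to 0.35). Myc, a driver of ribosome production, had 93 and 247 reads, a ratio of 0.09 (-0.26 to 0.45).

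Other abundant complexes served as a comparison. The 76 detected genes of the mitochondrial ribosome had a median log2 ratio of 0.092, with 56 above 0. Their summed reads were 0.151% of the MH library and 0.163% of the SH library, for a log2 ratio of 0.107 (0.086 to 0.128). The 71 nuclear-encoded genes of the respiratory chain had a median of 0.13, with 51 above 0 and a summed ratio of 0.139 (0.130 to 0.148). The 38 proteasome genes had a median of 0.040, with 24 above 0 and a summed ratio of 0.039 (0.020 to 0.057). The summed ratio of the cytosolic ribosomal protein genes, with its interval from -0.0087 to 0.0105, lay under the interval of each of these groups.

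**Figure D4:**
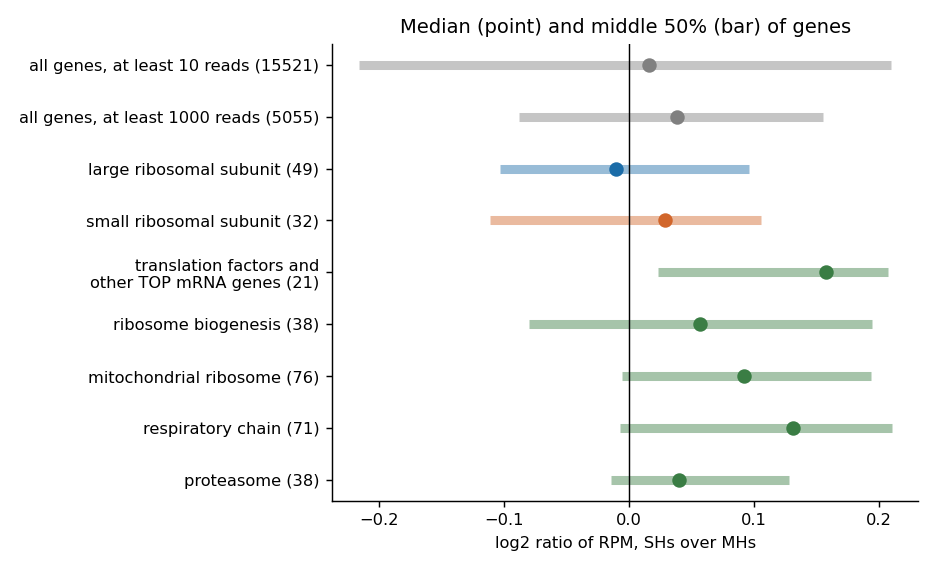
Median (point) and middle 50% (bar) of the log2 ratio of RPM, SHs over MHs (x axis), over the genes of each group with at least 10 reads, or at least 1000 where stated, with the number of genes in brackets. The medians of the large subunit (-0.011), of all genes (0.017) and of the small subunit (0.029) are the closest to 0, and the respiratory chain (0.13) and the 21 TOP mRNA genes that are not ribosomal proteins (0.16) lie furthest to the right.

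Mouse ribosomal protein genes have many processed pseudogenes, copies of the mRNA elsewhere in the genome, and reads of the gene can be counted on them. By sequence, 1122 annotated pseudogenes matched 81 of the members, and 863 of them had reads. Together they held 22480 reads in MHs, 15.5% of the reads of the genes and copies, and 51755 in SHs, 14.5%. The summed ratio of the copies was -0.12 on the log2 scale. Adding the copies to each gene moved its log2 ratio by a median of 0.021 and changed the sign of 8 of the 81 ratios. With the copies added, 16 intervals lay above 0 and 27 under, instead of 21 and 19. This setting was chosen after the data were seen.

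Rpl24 showed the largest effect. The gene (mm10, chr16:55966275-55971435, plus strand) held 20 reads in MHs and 62 in SHs, for a log2 ratio of 0.29 (-0.43 to 1.12), the fewest reads of the 81 genes. Its pseudogene Gm9385 (chr9:116040593-116041064) held 338 and 559 reads, and a further copy, Gm12254, held 102 and 227. The copies together took 95.7% of the reads of gene and copies in MHs and 92.8% in SHs. Summed, they gave 465 and 864 reads, for a log2 ratio of -0.43 (-0.59 to -0.26). Rpl24 also shares 484 of its 677 exon bases on the same strand with Gm28037, which had 0 reads in both libraries. The part of this overlap in the low count of Rpl24 was not tested. Gm9385 matched the Rpl24 mRNA over 472 bases without a gap and with a single substitution, C472T, counted from 1 at the start of the GENCODE transcript with the base of the gene first. The stretch around it is shown because it holds the only difference in the aligned bases, with the differing base in capitals.
Rpl24: ttaggaaagcccagCgagagcaggctatc
Gm9385: ttaggaaagcccagTgagagcaggctatc

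Rpl38 was the only other member with most of its MH reads on copies, 54.2% in MHs and 49.3% in SHs. Its log2 ratio went from -0.10 to -0.25 (-0.39 to -0.10) when they were added. For Rps6 the copies held 42.4% of the MH reads, and the ratio went from 0.14 to 0.07 (-0.03 to 0.16). For Rpl29 it went from -0.22 to -0.06 (-0.16 to 0.04). The genes named at both ends of the order changed little. With its copies, Rpl24 at -0.43 then stood below Rpl22l1, with overlapping intervals. Rplp2 stayed at 0.46 (0.37 to 0.55), with 0.240% of its MH reads on copies, Rpl22l1 at -0.39 and Rps20 at -0.34, while Rps12 went from 0.30 to 0.28. Fau, outside the rule, has a pseudogene of identical sequence, Gm9843, with 486 reads in MHs and 1157 in SHs.

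**Figure D5:**
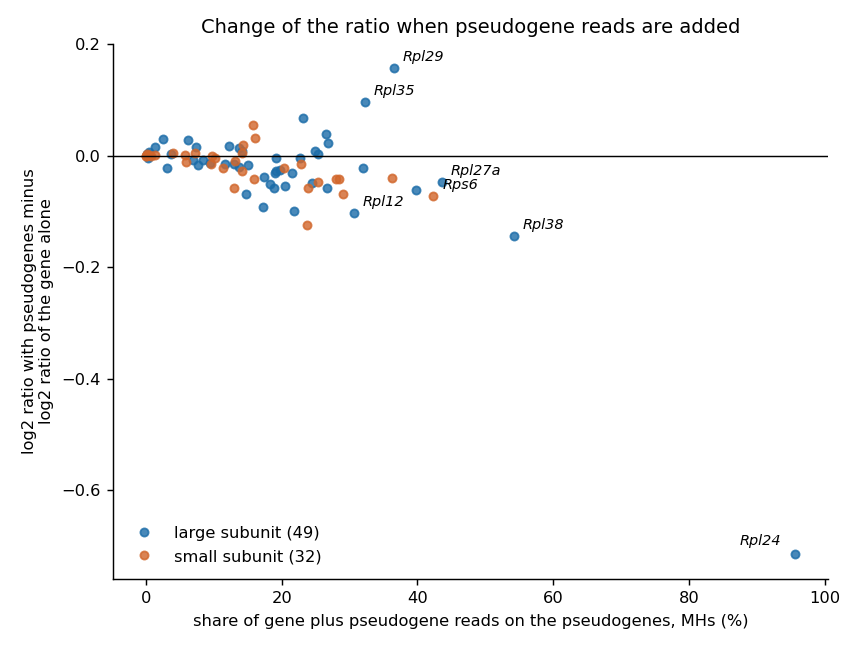
Change of the log2 ratio when the reads of sequence-matched pseudogenes are added (y axis) against the share of gene plus pseudogene reads that lay on the pseudogenes in MHs, in percent (x axis), for the 81 members with at least 10 reads. Most points lie near 0, Rpl38 lies at 54.2% with a fall of the ratio, and Rpl24 stands alone at 95.7%, where the ratio went from 0.29 to -0.43.

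Of the members, 19 share exon bases with another annotated gene, whose reads could be counted on either, and use of strand in the counting is not given in the sources used here. Rpl32, with 1546 reads in MHs and 3905 in SHs, holds the small nucleolar RNA gene Snora7a in 140 shared bases, and Snora7a itself was counted with 5710 and 10767 reads. Rpl5 shares 953 bases with Fam69a on the opposite strand, which had 102 and 244 reads, and Rps25 shares 462 bases with Trappc4, which had 274 and 610 reads. The ratios of Rpl32 (0.02), Rpl5 (-0.0044) and Rps25 (0.01) all had intervals that included 0.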

How the data were processed

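Poly(A) RNA of 1 MH and 1 SH library was sequenced on an Ion Proton with the Ion Total RNA-Seq Kit v2. The authors deposited raw read counts per gene symbol. Per their methods, trimmed reads were aligned to mm10 in CLC Genomics Workbench with a cap on multiple hits, and expression was given in RPKM. The program, annotation and strand setting behind the deposited counts are not given in the sources used here.

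From the counts, log2 ratios of RPM, SHs over MHs, with 0.5 added reads were computed in Python 3.11.15 (numpy 2.4.6, pandas 2.3.3, scipy 1.17.1). Intervals are 95% Clopper-Pearson and cover counting error only. With 1 library per cell type no test was possible. Medians used genes whose reads in both libraries summed to at least 10, and the ratio calculation was tested on simulated data. The mRNA length was that of the best-supported, shortest GENCODE M21 basic coding transcript, with CCDS transcripts preferred. Pseudogenes were matched with BLAST 2.17.0 (at least 80% identity over at least 70% of the pseudogene). Promoter windows came from RefSeq (GRCm38.p6).

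Named genes were the 5 highest and 5 lowest ratios and levels among members with at least 200 reads, the groups by role, the paralogs, the 3 highest and 3 lowest of the TOP and biogenesis lists, and the regulators. Genes named for pseudogenes or overlaps, Eef2 and Gar1 were chosen after their values were seen. Some genes taken by these rules are not reported here. The members and all lists were chosen with earlier results of these data known. Alternatives were edgeR's TMM (4.0.16) and DESeq2's size factors (1.42.0) in R 4.3.3, other totals, added reads, read minimums and fold thresholds, leaving out paralogs, and adding pseudogene reads.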

Additional observations from a re-analysis of the deposited data

How the results depend on the processing

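No paired analysis was possible because each cell type had 1 library. The log2 ratio of the summed reads of the ribosomal protein genes was 0.0009 as reported (-0.0087 to 0.0105). The counting interval no longer included 0 with TMM (0.0105, 0.00099 to 0.0201), DESeq2's size factors (0.0100, 0.00048 to 0.0196), the total without the 10 most abundant genes (0.0324, 0.0229 to 0.0420) and the total also without the ribosomal protein genes (0.0327, 0.0232 to 0.0423). It lay under 0 with sequence-matched pseudogenes added (-0.0166, -0.0254 to -0.0077), a setting chosen after the data were seen. With a threshold of 25% in place of 1.5-fold, 1 gene was called higher and 3 lower. Over all alternatives the median log2 ratio ranged from -0.023 to 0.040 for all members, from -0.038 to 0.021 for the large subunit, from 0.0066 to 0.061 for the small subunit, and from -0.051 to -0.022 for their difference. The TOP list ranged from 0.14 to 0.17 and the biogenesis list from 0.047 to 0.12. Other scalings moved all ratios by 0.0091 to 0.032. Intervals of single members cover counting error only. The spread between animals or preparations was not measured, and depth limits the members with few reads, such as Rpl24, with 82.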
